A study of Mus musculus with 12 samples.

Results

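Histones are the proteins around which DNA is wound, and the genes followed here encode the replication-dependent core histones H2A, H2B, H3 and H4 and the linker histones H1f1 to H1f6. Their probe sets were taken by gene symbol: H1f1 to H1f6, or a name starting with H2ac, H2bc, H3c or H4c plus a number. A probe set with several symbols was kept where all of them were histones, so 4 shared probe sets also carry H4f16 and 3 carry H4bc24. The rule found 64 probe sets of 41345 on the array: 5 for H1, 18 for H2A, 16 for H2B, 12 for H3, 12 for H4 and 1 that names H1f4, H2bc4, H2bc6 and H2bc8 together. Only 27 of the 64 carry 1 symbol. The other 37 carry several, because copies of a core histone are nearly identical, and a value of such a probe set is not a value of any 1 gene. Among the 65 genes named, 26 have a probe set of their own, and no H3 gene does. Below, a probe set with several symbols is called by its number. Of the 64, 6 form 3 pairs with the same value on every array, which leaves 61 distinct ones.

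Arrays were run on cultured keratinocytes of mice, the cells that make up most of the epidermis, whose Atg7 gene is flanked by recombination sites (Atg7 f/f). Cells without the K14::Cre transgene are called wt and can carry out autophagy. Cells with it are called KO and are autophagy deficient, since Cre removes the flanked part of Atg7, whose enzyme autophagosome formation needs. K14 is a promoter active in basal keratinocytes. Cultures of both genotypes in KGM-2 medium were given 20 µM paraquat, a herbicide that generates superoxide by redox cycling, or a sham treatment at 50% confluence, and RNA was taken 48 h later. Each of the 4 groups (wt sham, wt paraquat, KO sham, KO paraquat) has 3 arrays, 1 per culture. The series describes them as biological triplicates and does not say whether the cultures came from separate animals, so p-values measure the spread between these cultures.

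Replication-dependent histone genes lie in clusters and are transcribed mainly in S phase, when new DNA has to be packaged. Their mRNAs usually end in a stem-loop bound by SLBP instead of a poly(A) tail, and they are degraded when replication stops. Some copies can also give polyadenylated mRNA in cells that have left the cycle. The labelling kit is a whole-transcript kit that does not rely on a poly(A) tail. Of the 65 genes, 54 lie on chromosome 13 between positions 21715711 and 23934913, 10 on chromosome 3 between 96219885 and 96270192, and 1, H4f16, on chromosome 6 (GRCm38.p6).

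Signals are the authors' RMA values on a linear scale, and differences are log2 differences with their SE from limma. Array medians were 42 to 45, and 36 of the 64 histone probe sets had a mean above 45. Atg7 measured 286 to 457 in the wt arrays and 96 to 148 in the KO arrays (KO against wt log2 -1.55 in sham and -1.87 under paraquat, SE 0.14). Where its probes lie relative to the deleted part is not given in the sources used here. All 9 measured keratinocyte markers had means above 45, with summed signals of 29549 to 31814 in the sham arrays and 26174 to 28535 under paraquat. In each genotype 4 of the 9 fell, among them Krt1 (-1.40 in wt, -1.62 in KO) and Itgb4 (-1.20 and -0.67). The summed signals over the 12 arrays were 324 to 455 for fibroblast markers (4 of 9 above 45), 427 to 1013 for melanocyte markers (5 of 8), 159 to 430 for endothelial markers (3 of 4) and 115 to 159 for leukocyte and Langerhans markers (1 of 4). The melanocyte sum was 427 to 532 in the sham arrays and 921 to 1013 under paraquat, and the endothelial sum was 159 to 196 against 281 to 430. The part of these cells in the results below was not tested. One array stood apart: the mean log2 signal of Mki67, Top2a and Cdk1, which mark dividing cells, was 7.50 on wt sham 2 against 9.12 and 8.69 on the other wt sham arrays. On the KO paraquat side, array 3 had the highest mean of its group (7.77 against 7.28 and 7.47). In bulk RNA, fewer cells in S phase and less histone mRNA per cell cannot be told apart.

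Under paraquat more histone probe sets rose than fell in wt, and about as many rose as fell in KO. In wt, 19 of 64 rose (29.7%) and 6 fell (9.38%), where over the whole array 9.7% of probe sets rose and 10.5% fell at a limma adjusted p under 0.05. The share that fell in wt was thus no larger than that of the array. In KO, 21 rose (32.8%) and 19 fell (29.7%), against 8.89% and 10.6% of the array. In wt 13 of the 37 shared probe sets rose and 1 fell, while of the 27 with 1 symbol 6 rose and 5 fell. The median log2 difference of the 64 was 0.24 in wt and 0.10 in KO, and over all probe sets it was 0 and -0.02. A filter on dim signals kept 38 histone probe sets, those above the overall median on at least 3 arrays. A single high group, such as KO sham, is enough to pass it. Among the 38 the medians were -0.089 in wt and -0.27 in KO, so the sign of the median depends on which probe sets are kept. The wt and KO responses share no arrays. Of the probe sets that rose, 17 did so in both, which is 89.5% of the wt list and 81.0% of the KO list. Of those that fell, 6 did so in both, all 6 of the wt list and 31.6% of the KO list, and none was called in opposite directions. A further 13 passed as lower in KO without passing in wt. Without wt sham 1 or without wt paraquat 2, 3 fell in wt instead of 6 (probe set 17285867, H4c12 and H2ac21). Without both wt sham 2 and KO paraquat 3 the counts were 17 higher and 9 lower in wt, and 16 and 21 in KO.

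**Figure D1:**
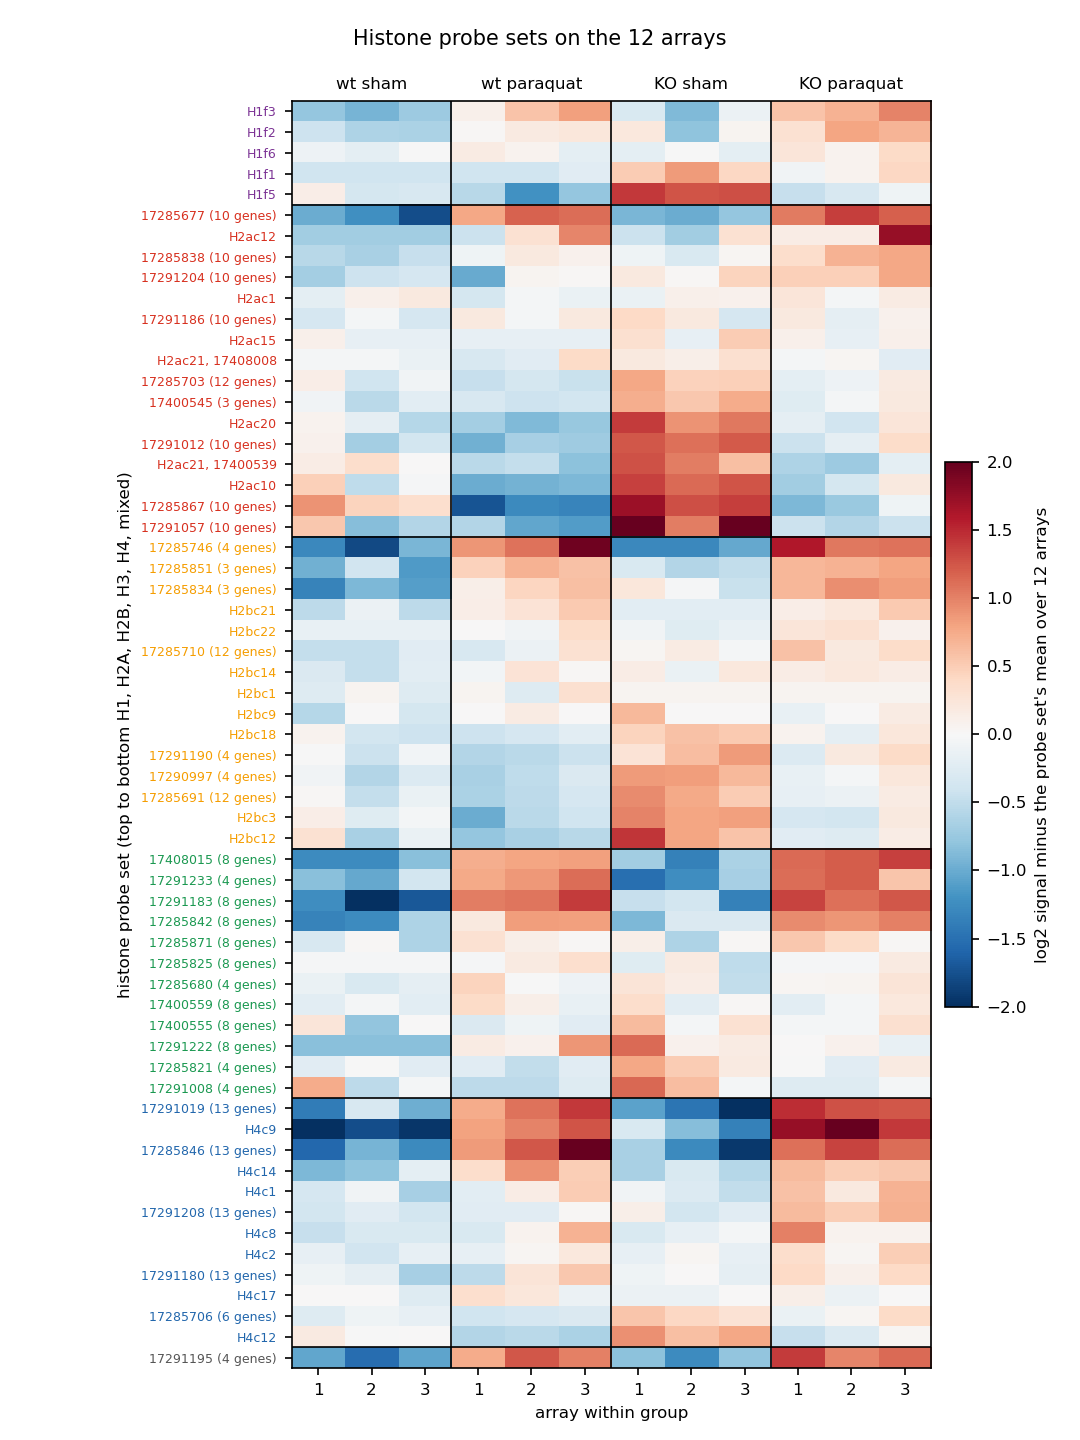
Log2 signal of the 61 distinct histone probe sets (rows, grouped by class and ordered by the KO response) on the 12 arrays (columns), each row centred on its own mean; red is above and blue below that mean. Every class has rows that are red in both paraquat groups, and H2A and H2B have most of the rows that are red in the 3 KO sham arrays.

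In KO the bright probe sets that passed were mostly lower under paraquat, and the dim ones that passed were mostly higher. Of the 10 with a mean signal of 1000 or more, a bound chosen after the signals were seen, 9 fell in KO and 1 rose, where 17.7% of all probe sets this bright fell and 20.7% rose. Only 8 of the 10 are distinct. Their means take in the KO sham arrays, from which the KO fall is counted, and H2ac10 reaches the bound only through them. In wt 2 of the 10 fell and 1 rose, near the 22.3% and 21.4% of all probe sets this bright. Of the 28 with means at or below 45, 10 rose and 2 fell in KO, and 8 rose and none fell in wt (10 had an unadjusted p under 0.05 in wt by limma, each of them higher). Of all probe sets with means at or below 45, 2.17% rose and 4.1% fell in KO, and 3.05% rose and 2.49% fell in wt. The only bright probe set that rose was 17285851, annotated to H2bc4, H2bc6 and H2bc8. Its signal went from 1048, 1568 and 934 in wt sham to 2801, 3298 and 3054 in wt paraquat, and from 1648, 1354 and 1456 in KO sham to 3227, 3298 and 3524 in KO paraquat.

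Linker histones sit where DNA enters and leaves the nucleosome, and their 5 probe sets each name 1 gene. Under paraquat H1f2 and H1f3 rose in both genotypes and H1f5 fell in both. H1f1 (-0.46) passed as lower and H1f6, a testis form, as higher (0.37) in KO alone, both at signals of 8 to 21. H1f4 is represented only on the probe set it shares with 3 H2B genes.

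H1f5 had the largest log2 differences of the H1 genes in the KO response and between genotypes in sham. In wt the response of H1f3 was larger (log2 1.31). Its signal was 56, 40 and 41 in wt sham, 35, 22 and 30 in wt paraquat, 136, 123 and 125 in KO sham, and 37, 41 and 48 in KO paraquat. The KO sham arrays lay above all the others, and neither paraquat group overlapped its own sham group. The fall under paraquat was 1.58-fold in wt (log2 -0.66, SE 0.18, adjusted p 0.0219) and 3.06-fold in KO (log2 -1.61, SE 0.18, adjusted p 0.000114). KO exceeded wt 2.83-fold in sham (log2 1.50, SE 0.18, adjusted p 0.00127). The wt fall lost its call without wt sham 1 or wt paraquat 2 (adjusted p 0.0868 and 0.0780).

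H1f2 was the brightest H1 probe set. It measured 423, 368 and 364 in wt sham, 578, 640 and 662 in wt paraquat, 656, 325 and 590 in KO sham, and 701, 982 and 910 in KO paraquat. Paraquat arrays were above sham arrays of the same genotype without overlap, but KO sham 2 was far below the other KO sham arrays. The rise was 1.63-fold in wt (log2 0.70, SE 0.23, adjusted p 0.0496) and 1.71-fold in KO (log2 0.77, SE 0.23, adjusted p 0.0339). Both calls lay close to the threshold. The wt call was lost without any 1 of 9 arrays (each wt array, KO sham 3, KO paraquat 2 or 3; adjusted p 0.0548 to 0.133), and the KO call without KO sham 2, KO paraquat 2 or 3 (0.0615 to 0.115). Without KO sham 2 the KO log2 difference was 0.46, and KO then exceeded wt in sham (log2 0.70, adjusted p 0.0380).

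H1f3 rose from a mean of 30.3 ± 2.1 to 76.7 ± 18.6 in wt (SD, n = 3; log2 1.31) and from 43, 29 and 49 to 79, 86 and 106 in KO (2.28-fold, adjusted p 0.00257). H1f1 stayed dim throughout. It measured 8 on each wt sham array, 8, 8 and 9 in wt paraquat, 15, 19 and 14 in KO sham, and 10, 11 and 14 in KO paraquat. KO sham lay above wt sham without overlap (log2 0.99, SE 0.14, adjusted p 0.00294), at signals where rounding to whole numbers is coarse. The KO response of H1f1 lost its call without any 1 of 9 arrays, each wt sham array, KO sham 1 or 2, wt paraquat 1 or 2, KO paraquat 1 or 2 (adjusted p 0.0509 to 0.141), and that of H1f6 without any 1 of 8, each wt sham array, KO sham 1 or 3, wt paraquat 2, KO paraquat 1 or 3 (0.0514 to 0.159).

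To compare an H1 gene that fell with one that rose, the 250 bases before their annotated starts are shown, from RefSeq on GRCm38.p6, 5′ to 3′ on the gene's strand. Capitals mark matches, on either strand, to the CCAAT box, to the octamer core (TTTGCAT), to TATAAA, a form of the TATA box, and to the H1 box, an element named for its place in H1 promoters and spelled AAACACA. H1f5 is at chr13:21780626-21780875 (minus strand) and H1f3 at chr13:23554782-23555031 (plus strand).
H1f5: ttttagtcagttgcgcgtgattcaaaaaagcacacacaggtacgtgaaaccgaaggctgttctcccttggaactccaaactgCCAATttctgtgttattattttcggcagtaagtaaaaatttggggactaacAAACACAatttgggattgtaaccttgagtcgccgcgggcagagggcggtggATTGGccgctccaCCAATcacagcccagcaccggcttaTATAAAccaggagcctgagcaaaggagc
H1f3: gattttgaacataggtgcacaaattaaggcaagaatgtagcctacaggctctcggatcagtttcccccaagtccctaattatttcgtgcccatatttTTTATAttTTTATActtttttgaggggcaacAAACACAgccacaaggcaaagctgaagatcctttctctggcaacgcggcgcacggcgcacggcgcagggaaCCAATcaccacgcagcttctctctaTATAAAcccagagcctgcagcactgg
Both windows hold 1 H1 box. H1f5 has 3 CCAAT boxes and 1 TATA box, and H1f3 has 1 CCAAT box and 3 TATA boxes. The windows share the same kinds of motif, and a link between motifs and responses was not tested. A match of letters is a description and does not show that a factor binds there.

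H2A, one of the 4 core histones, had the most probe sets that fell. In KO 10 of 18 fell (55.6%) and 2 rose (11.1%) under paraquat, against 10.6% and 8.89% of the array. In wt 3 fell (16.7%) and 2 rose (11.1%), not far from the 10.5% and 9.7% of the array. In sham cultures 10 of 18 were higher in KO than in wt, against 2.47% of the array. Of the 18, 16 are distinct, and both members of each identical pair are in both counts of 10.

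Probe set 17400545 had the highest mean of the H2A class and is annotated to H2ac18, H2ac19 and H2ac20. Its signal was 4471, 3232 and 4042 in wt sham, 3743, 3528 and 3617 in wt paraquat, 7712, 6778 and 7815 in KO sham, and 3943, 4551 and 5362 in KO paraquat. Only KO sham stood clear of all the other groups. The fall in KO was 1.62-fold (log2 -0.70, SE 0.14, adjusted p 0.00410), and in wt the log2 difference was -0.10 (adjusted p 0.710). KO sham exceeded wt sham 1.91-fold (log2 0.94, SE 0.14, adjusted p 0.00362). Probe set 17408017 has the same values and symbols and adds nothing to this.

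Probe set 17285867, annotated to 10 H2A genes (H2ac4, H2ac6, H2ac7, H2ac8, H2ac11, H2ac12, H2ac13, H2ac22, H2ac23 and H2ac24), fell the most in wt. It measured 267, 195 and 180 in wt sham, 43, 59 and 57 in wt paraquat, 466, 348 and 371 in KO sham, and 77, 85 and 135 in KO paraquat. The fall was 4.02-fold in wt (log2 -2.01, SE 0.23, adjusted p 8.32e-05) and 4.08-fold in KO (log2 -2.03, SE 0.23, adjusted p 0.000120). Its KO against wt difference in sham (log2 0.89, adjusted p 0.0470) lost its call without any 1 of 9 arrays (wt sham 2 or 3, each KO sham array, each wt paraquat array, KO paraquat 2; 0.0527 to 0.152).

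Probe set 17285677 carries the same 10 symbols and moved the other way. It measured 19, 16 and 11 in wt sham, 64, 85 and 82 in wt paraquat, 20, 19 and 22 in KO sham, and 77, 98 and 86 in KO paraquat. The rise was 5.11-fold in wt (log2 2.35, SE 0.19, adjusted p 6.81e-06) and 4.27-fold in KO (log2 2.09, SE 0.19, adjusted p 3.02e-05). In all, 7 probe sets carry these 10 symbols, with mean signals from 11.5 to 1905. Under paraquat 2 of them rose and 1 fell in wt, and 2 rose and 3 fell in KO. The annotation therefore does not say which of the 10 genes gave either response.

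Single-gene H2A probe sets were lower under paraquat where they passed. H2ac21 on probe set 17400539 measured 66, 76 and 60 in wt sham, 41, 43 and 34 in wt paraquat, 144, 122 and 91 in KO sham, and 39, 36 and 52 in KO paraquat. It fell in wt (log2 -0.78, SE 0.19, adjusted p 0.0117) and in KO (log2 -1.48, SE 0.19, adjusted p 0.000239), and its 2 paraquat groups overlapped each other. The wt call was lost without wt paraquat 3 (adjusted p 0.0508). Another H2ac21 probe set, 17408008, was dim (14 to 23) and passed in no comparison. H2ac10 fell from 1134 ± 382 to 575 ± 19 in wt and from 2644 ± 207 to 943 ± 302 in KO (SD, n = 3; log2 -0.93 and -1.53). The wt call of H2ac10 was lost without wt sham 1 or 3, or wt paraquat 1 or 2 (adjusted p 0.0540 to 0.0749). H2ac20 passed only in KO (log2 -1.23, adjusted p 0.00114), with a wt difference of -0.54 (adjusted p 0.0775). It passed as lower in wt without wt sham 3 (log2 -0.72, adjusted p 0.0312), with the filter on dim signals (0.0450) and with 1 probe set per gene (0.0383).

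H2ac20, H2ac21 and the H2B gene H2bc21 are neighbours on chromosome 3, where 58 bases separate H2ac21 from H2ac20 and 191 bases separate H2ac20 from H2bc21. H2bc21 rose under paraquat in wt from 12, 16 and 12 to 19, 21 and 25 (log2 0.70, adjusted p 0.00487) while H2ac21 fell. In KO it rose from 15 on each array to 19, 20 and 25 (log2 0.50, adjusted p 0.0331). The KO call of H2bc21 was lost without any KO sham array or KO paraquat 2 or 3 (0.0578 to 0.124). The window upstream of H2ac20, which spans the whole gap to H2bc21, is at chr3:96220881-96221130 (minus strand).
H2ac20: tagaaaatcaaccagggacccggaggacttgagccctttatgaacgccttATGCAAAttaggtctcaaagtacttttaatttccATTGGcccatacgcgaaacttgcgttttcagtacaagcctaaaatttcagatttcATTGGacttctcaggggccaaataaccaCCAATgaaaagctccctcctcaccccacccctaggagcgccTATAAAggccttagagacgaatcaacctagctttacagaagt
It holds 3 CCAAT boxes, an octamer core and a TATA box, and no H1 box.

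H2B pairs with H2A in the nucleosome, and its 16 probe sets divided evenly in KO. In wt 5 rose and 1 fell, in KO 5 rose and 5 fell, and in sham 7 were higher in KO. Array shares were 9.7% and 10.5% in wt, 8.89% and 10.6% in KO, and 2.47% in sham. The 1 of 16 that fell in wt is no more than the array share. Probe set 17290997, annotated to H2bc7, H2bc11, H2bc13 and H2bc15, had the highest mean. It measured 2877, 2021 and 2513 in wt sham, 1934, 2141 and 2490 in wt paraquat, 5444, 5414 and 4771 in KO sham, and 2729, 2945 and 3548 in KO paraquat. The KO sham arrays lay above all others. It fell 1.70-fold in KO (log2 -0.77, SE 0.15, adjusted p 0.00378), with a wt log2 difference of -0.17 (adjusted p 0.520), and KO exceeded wt in sham 2.13-fold (log2 1.09, SE 0.15, adjusted p 0.00258).

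Both probe sets annotated to H2bc4, H2bc6 and H2bc8 alone rose. Beside 17285851, described above (log2 1.40 in wt and 1.18 in KO), probe set 17285834 went from 77, 104 and 90 to 210, 261 and 295 in wt and from 227, 190 and 143 to 309, 371 and 346 in KO (log2 1.50 and 0.90). It was also higher in KO sham than in wt sham (log2 1.03, adjusted p 0.00912). Probe set 17285746 carries the same 4 symbols as 17290997 but rose, by 6.23-fold in wt (adjusted p 5.92e-05) and 5.47-fold in KO (adjusted p 0.000152). Its paraquat arrays all lay above its sham arrays.

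H2bc3 was the single-gene H2B probe set that fell in both genotypes. Its signal was 184, 142 and 163 in wt sham, 84, 115 and 127 in wt paraquat, 332, 291 and 295 in KO sham, and 133, 130 and 191 in KO paraquat. The differences were -0.60 in wt (SE 0.18, adjusted p 0.0385) and -1.04 in KO (SE 0.18, adjusted p 0.00209). The wt call was lost without wt sham 1 or 3, KO sham 2 or 3, or wt paraquat 1 or 2 (adjusted p 0.0524 to 0.141). H2bc12 (-1.04) and H2bc18 (-0.47) passed as lower in KO alone. Without KO paraquat 2 the adjusted p of H2bc12 was 0.0506, and H2bc18 lost its call without any KO sham array or KO paraquat 1 or 2 (0.0524 to 0.124). The upstream window of H2bc3, at chr13:23746484-23746733 (plus strand), is shown because it holds 3 of the motifs searched.
H2bc3: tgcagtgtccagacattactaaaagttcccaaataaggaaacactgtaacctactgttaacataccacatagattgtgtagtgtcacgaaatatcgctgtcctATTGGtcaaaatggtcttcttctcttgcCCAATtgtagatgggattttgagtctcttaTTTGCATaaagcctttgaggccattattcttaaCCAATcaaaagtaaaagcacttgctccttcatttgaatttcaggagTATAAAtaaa
It has 3 CCAAT boxes, 1 octamer core and 1 TATA box.

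H3 carries many of the best-known histone modifications, and all of its 12 probe sets are shared by 4 or 8 genes. In wt 5 rose and none fell (5 had an unadjusted p under 0.05, all of them higher), and in KO 4 rose and 1 fell. Array shares were 9.7% and 10.5% in wt, and 8.89% and 10.6% in KO. The 1 of 12 that fell in KO is no more than the array share. Probe set 17408015, with 8 symbols (H3c2, H3c3, H3c4, H3c6, H3c7, H3c13, H3c14 and H3c15), measured 15, 15 and 20 in wt sham, 59, 62 and 63 in wt paraquat, 22, 14 and 23 in KO sham, and 78, 83 and 92 in KO paraquat. It rose 3.71-fold in wt (log2 1.89, SE 0.18, adjusted p 2.36e-05) and 4.38-fold in KO (log2 2.13, SE 0.18, adjusted p 2.12e-05), with no overlap between treatments. Probe set 17400555 carries the same 8 symbols and had the highest mean of the class. It measured 353, 174 and 302 in wt sham, 245, 281 and 256 in wt paraquat, 465, 290 and 368 in KO sham, and 291, 291 and 374 in KO paraquat. Its groups overlapped, wt sham 2 was its lowest array, and it passed in no comparison (log2 -0.02 in wt and -0.22 in KO).

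Other H3 probe sets ranged widely. Probe set 17291183 rose 7.11-fold in wt (23.0 ± 6.6 to 160 ± 24) and 3.88-fold in KO (45.0 ± 14.8 to 168 ± 15; SD, n = 3). Probe set 17291222 was 10 on every wt sham array and 20, 19 and 33 in wt paraquat, and it measured 39, 19 and 20 in KO sham and 18, 19 and 16 in KO paraquat. It rose in wt (log2 1.22, adjusted p 0.00687) and differed by -0.48 in KO (adjusted p 0.258). Of the 64, it had the smallest adjusted p for a difference between the 2 responses (log2 -1.70, SE 0.37, adjusted p 0.0815), which misses the threshold.

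H4 had the largest rise of a single-gene probe set and one of the brightest that fell. In wt 4 of 12 rose and 1 fell, and in KO 6 rose and 1 fell. Array shares were 9.7% and 10.5% in wt, and 8.89% and 10.6% in KO. The 1 of 12 that fell in each genotype is no more than the array share. H4c9 measured 35, 44 and 39 in wt sham, 261, 299 and 358 in wt paraquat, 121, 83 and 59 in KO sham, and 502, 656 and 400 in KO paraquat. Paraquat arrays were above every sham array. The rise was 7.75-fold in wt (log2 2.95, SE 0.25, adjusted p 1.05e-05) and 6.06-fold in KO (log2 2.60, SE 0.25, adjusted p 4.67e-05). KO sham exceeded wt sham 2.14-fold (log2 1.10, adjusted p 0.0292), a call lost without any wt sham array or KO sham 1 or 2 (0.0646 to 0.0879).

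H4c12 moved the opposite way. It measured 2127, 1861 and 1878 in wt sham, 1242, 1289 and 1205 in wt paraquat, 3510, 2834 and 3185 in KO sham, and 1351, 1546 and 1914 in KO paraquat. The paraquat arrays fell below the sham arrays of the same genotype, by 1.57-fold in wt (log2 -0.65, SE 0.13, adjusted p 0.00360) and 1.99-fold in KO (adjusted p 0.000275). In sham KO exceeded wt 1.62-fold (log2 0.70, SE 0.13, adjusted p 0.0106). H4c14 rose in both genotypes (log2 1.22 and 1.06), and H4c1 in KO (log2 0.77). That call of H4c1 was lost without KO sham 2 or 3, or KO paraquat 1 or 3 (adjusted p 0.0613 to 0.0879). The windows upstream of the H4 gene that fell, at chr13:21750554-21750803 (minus strand), and of the one that rose most, at chr13:22041363-22041612 (minus strand), follow.
H4c12: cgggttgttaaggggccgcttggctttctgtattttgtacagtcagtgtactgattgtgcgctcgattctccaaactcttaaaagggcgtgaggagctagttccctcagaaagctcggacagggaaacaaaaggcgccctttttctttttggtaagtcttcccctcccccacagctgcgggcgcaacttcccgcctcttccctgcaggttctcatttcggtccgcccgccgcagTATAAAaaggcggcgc
H4c9: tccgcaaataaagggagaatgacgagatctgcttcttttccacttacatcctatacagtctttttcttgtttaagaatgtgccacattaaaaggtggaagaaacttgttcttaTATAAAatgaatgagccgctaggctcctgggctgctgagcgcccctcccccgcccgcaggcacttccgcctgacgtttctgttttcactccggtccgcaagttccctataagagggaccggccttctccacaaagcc
Each holds 1 TATAAA match and none of the other 3 motifs. That of H4c12 lies near the end of the window and that of H4c9 near its middle.

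The probe set shared by H1f4, H2bc4, H2bc6 and H2bc8 (17291195) measured 77, 55 and 76 in wt sham, 264, 372 and 317 in wt paraquat, 89, 66 and 91 in KO sham, and 418, 312 and 345 in KO paraquat. It rose 4.59-fold in wt (log2 2.20, SE 0.19, adjusted p 1.05e-05) and 4.38-fold in KO (log2 2.13, SE 0.19, adjusted p 2.57e-05). Its wt and KO groups overlapped under both treatments.

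**Figure D2:**
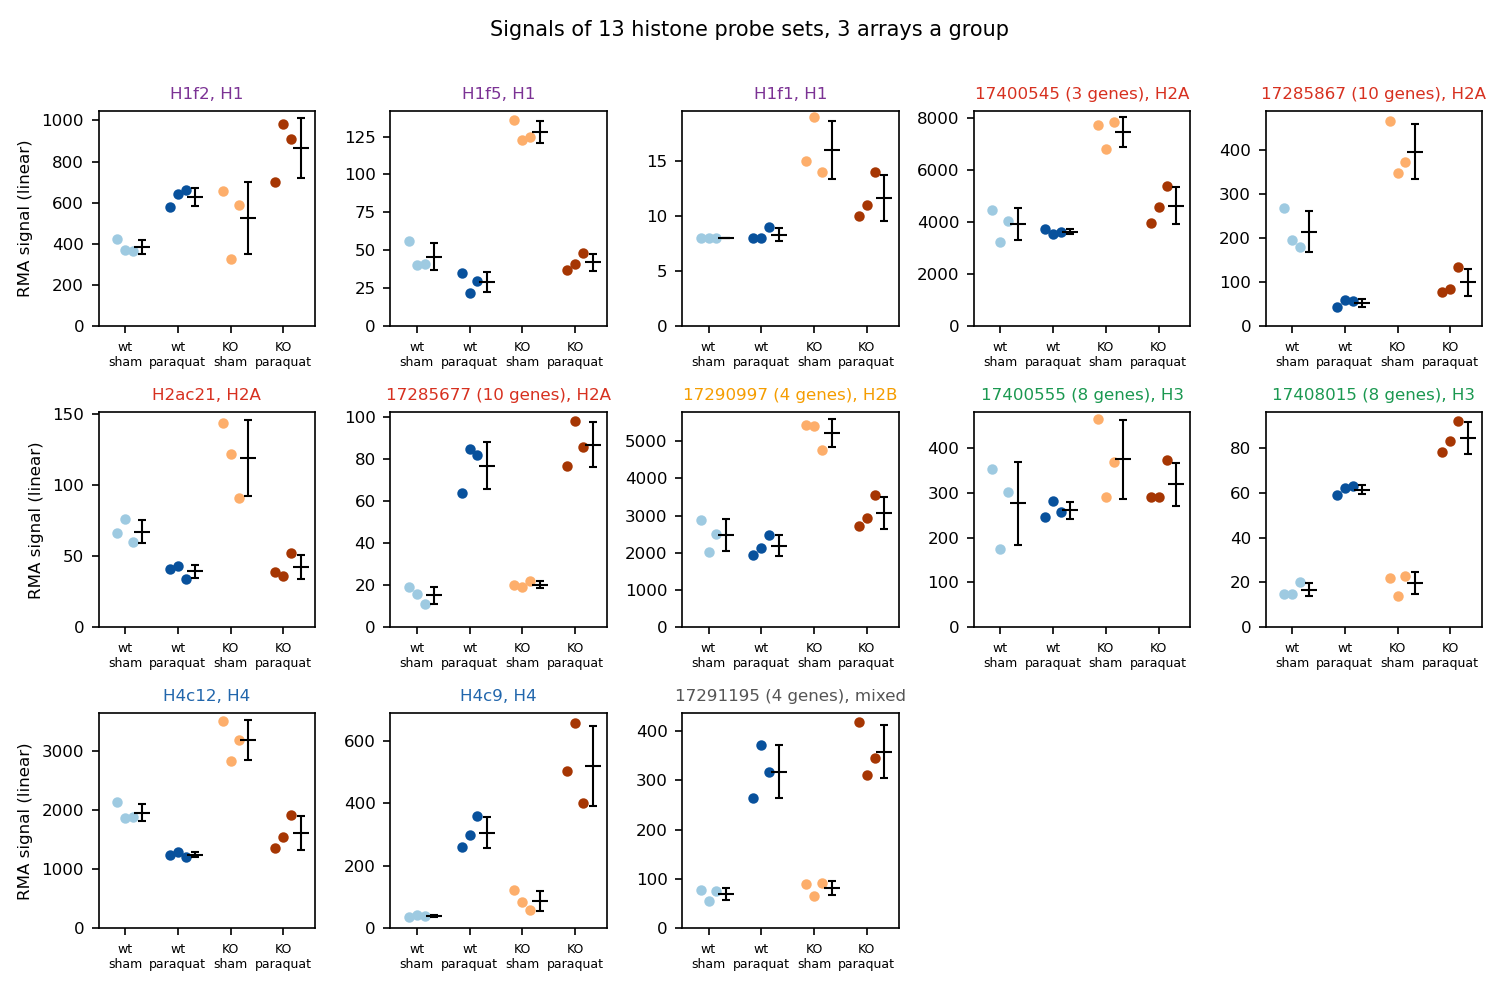
RMA signal (linear, each panel with its own axis from 0) of 13 histone probe sets in the 4 groups; dots are arrays and the black mark is the mean with its SD (n = 3). H1f5, 17400545, 17290997 and H4c12 are highest in KO sham, while H4c9, 17285677, 17408015 and 17291195 are high in both paraquat groups.

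**Figure D3:**
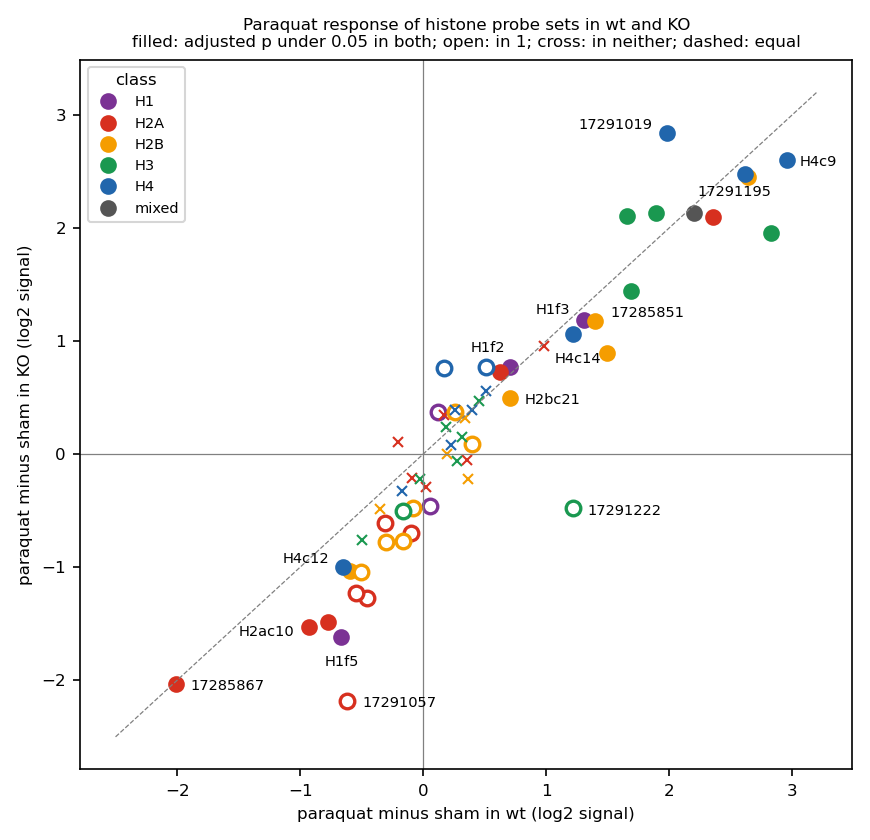
Paraquat minus sham log2 difference of the 61 distinct histone probe sets in wt (horizontal) and KO (vertical), coloured by class. Filled points passed in both genotypes, 17 of them upper right and 6 lower left; probe set 17291222 stands apart at the lower right (1.22 in wt, -0.48 in KO).

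Against wt, KO sham cultures had higher histone signals and no lower ones among those called. Of 64 probe sets 24 were higher and none lower, against 2.47% higher and 2.65% lower over the array. By unadjusted limma p, 33 were under 0.05, each higher, with no array share counted. By class, 2 of 5 for H1, 10 of 18 for H2A, 7 of 16 for H2B, 2 of 12 for H3 and 3 of 12 for H4 were higher. The median log2 difference was 0.44, with 57 above 0 and 7 below, and 0.01 over all probe sets. Of the 10 with a mean of 1000 or more, 9 were higher in KO, where 5.66% of all probe sets this bright were. Only 8 of these 10 are distinct. The mean takes in the KO sham arrays, and H2ac10 reaches the bound only through them. Besides those given above, probe set 17291057, with 10 H2A symbols, was 63, 24 and 29 in wt sham against 180, 88 and 174 in KO sham (log2 1.99, adjusted p 0.00912), and probe set 17291012, with the same symbols, was 1738, 1019 and 1267 against 3856, 3509 and 3833 (log2 1.51, adjusted p 0.00317).

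The size of this count depends on the arrays. It was 15 without wt sham 2, 13 without wt sham 3, 15 without KO sham 1, 16 without KO sham 2, and 15 without both wt sham 2 and KO paraquat 3. Fitted on the 6 sham arrays alone it was 5 (H2bc3, H1f1, H1f5, 17290997 and 17291012). Counts over all 41345 probe sets also fell from the 1020 of the full fit. They were 559 without wt sham 2, 600 without wt sham 3, 760 without KO sham 1 and 502 without KO sham 2. Without both wt sham 2 and KO paraquat 3 the array count was 543, and in the 6 sham arrays it was 89. The histone median stayed between 0.39 and 0.51 when any 1 array was left out.

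Under paraquat no histone probe set passed between KO and wt, in either direction, where 0.0363% of the array was higher and 0.0919% lower. Here 26 had an unadjusted limma p under 0.05 and 53 of 64 were above 0, counts that were not made over the whole array. The histone median was 0.30, against -0.002 over all probe sets. Each of the 36 probe sets with means above 45 was above 0. The smallest adjusted p, 0.0602, belonged to probe set 17291208, with 13 H4 symbols, at 11, 11 and 13 in wt and 20, 18 and 21 in KO. It passed with array weights (adjusted p 0.0384) and without KO sham 1 (0.0359).

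The difference between the responses, KO minus wt, passed for no histone probe set, where 0.513% of the array was higher and 0.206% lower. Of 64, 49 were below 0 and 14 had an unadjusted limma p under 0.05, again without such a count over the array. The histone median was -0.20, against -0.02 over all probe sets. H1f5 came second to 17291222 (log2 -0.95, SE 0.25, adjusted p 0.145). With 16 added to the signals before the log2, H1f5 passed (log2 -0.86, adjusted p 0.0465), and without wt sham 1 probe set 17291057 passed (log2 -1.98, adjusted p 0.0473). The larger number of falls in KO is therefore not shown to differ from wt for any single probe set in the full fit.

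**Figure D4:**
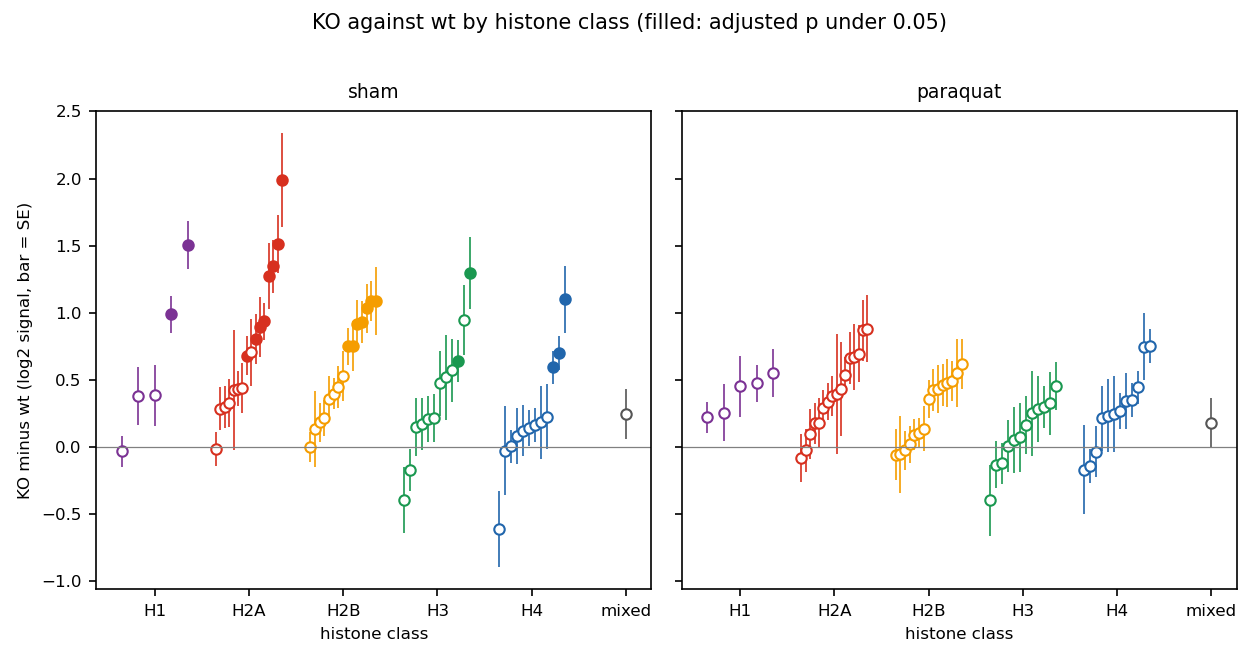
KO minus wt log2 difference with its SE for the 61 distinct histone probe sets, by class, in sham (left) and paraquat (right) cultures; filled points have an adjusted p under 0.05. Filled points occur only in sham, at 0.59 to 1.99, most of them H2A and H2B.

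Some histone genes are known to give polyadenylated mRNA outside S phase, and those of this list that could be measured alone are H1f2 and H2bc21, which both rose. H2bc4 is named on 6 shared probe sets, of which 3 rose in wt, and 3 rose and 1 fell in KO. H2ac18 is named on 17400545 and its identical partner, which fell in KO. H2ac6 is named on 9, of which 2 rose and 1 fell in wt, and 2 rose and 5 fell in KO. Array shares were 9.7% and 10.5% in wt, and 8.89% and 10.6% in KO. Outside the rule by name are 3 further histones of this list. The probe set of H2bu2, shared with H2bu1-ps, read 10, 8 and 12 in wt sham, 8, 9 and 8 in wt paraquat, 8, 10 and 9 in KO sham and 8, 8 and 7 in KO paraquat. It passed in no comparison. H2aw went from 25, 35 and 18 to 90, 61 and 78 in wt (log2 1.59, adjusted p 0.000314) and from 32, 28 and 31 to 80, 83 and 101 in KO (log2 1.53, adjusted p 0.000532). H4f16, which 4 shared probe sets of the rule also carry, has 2 probe sets of its own, and they differ. Probe set 17472159 rose from 30.0 ± 3.0 to 136 ± 16 in wt and from 41.3 ± 4.0 to 117 ± 8 in KO (SD, n = 3; log2 2.18 and 1.51). Probe set 17548561 passed in neither response (log2 0.31 and -0.20). Of the testis forms, H1f6 is given above, and H2bc1 (4 to 6) and H2ac1 (38 to 57) passed in no comparison.

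Genes that make and process histone mRNA fell more often than they rose in KO. Of 16 measured of 17 listed, 1 rose and 4 fell in wt (median log2 difference -0.05), 1 rose and 6 fell in KO (median -0.22), and 3 were higher in KO sham. Over the array 9.7% rose and 10.5% fell in wt, and 8.89% and 10.6% in KO, so the 1 of 16 that rose is no more than the array share. Among all probe sets with means above 45, as 14 of the 16 have, 18.6% fell in wt and 17.1% in KO. That count of 3 was 1 without wt sham 2 or 3, 0 without KO sham 2, and 2 without KO sham 1 or without any 1 paraquat array. Slbp, which encodes the stem-loop binding protein, measured 240, 255 and 225 in wt sham, 270, 216 and 254 in wt paraquat, 339, 388 and 348 in KO sham, and 233, 234 and 283 in KO paraquat. It fell in KO (log2 -0.52, adjusted p 0.00685), was higher in KO sham (log2 0.58, adjusted p 0.0141, or 0.0576 to 0.0601 without wt sham 3 or KO sham 2) and differed by 0.04 in wt. Npat, the cyclin E-CDK2 substrate that activates histone transcription, fell in both (-0.47 in wt, -0.70 in KO). Eri1, an exonuclease that acts on the stem-loop, also fell in both (-0.46 and -0.64). Casp8ap2 (-0.83) fell in KO. E2f1, an S-phase transcription factor, fell in both (-0.37 in wt, -0.59 in KO). Its wt call was lost without wt sham 1 or 3, or any wt paraquat array (adjusted p 0.0541 to 0.0988). Hinfp, a factor for H4 promoters, rose in wt (0.59) and missed the threshold in KO (0.32, adjusted p 0.0746, or 0.0423 without wt sham 1).

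Histone chaperones escort newly made histones and deposit them on DNA. Of 12 measured of 13 listed, 7 fell in wt (median -0.36), and in KO (median -0.35) 7 fell and 1, the importin Ipo4, rose (0.29, a call lost without KO sham 2 or 3, or KO paraquat 1 or 2, with adjusted p 0.0897 to 0.106). Over the array 10.5% fell in wt and 10.6% in KO. Among all probe sets with means above 45, as the 12 have, 18.6% and 17.1% fell. Nasp, which buffers H3 and H4 and H1, fell by 0.72 in wt and by 1.13 in KO on the log2 scale. Chaf1b, a subunit of the CAF-1 complex, fell by 0.92 and by 1.35. Asf1b, an H3-H4 chaperone, fell by 0.71 and by 1.46 and was higher in KO sham (1.27). The wt count of 7 was 4 without wt sham 1 or wt paraquat 1, and the KO count of 7 was 4 without KO paraquat 2. The wt call of Asf1b was lost without wt sham 1 or 3, KO sham 3, any wt paraquat array or KO paraquat 1 (adjusted p 0.0517 to 0.131). Of replication-independent variants, 8 measured of 11 listed, 1 rose in wt, 4 fell in KO (2 without KO paraquat 1), and 3 were higher and 1 lower in KO sham. The 1 of 8 that rose is close to the 9.7% of the array. H2ax, the variant phosphorylated at DNA breaks, fell in KO (-1.06) and was higher in KO sham (1.15). In wt its difference was -0.39 (adjusted p 0.176), which passed without wt sham 2 (adjusted p 0.00253). Cenpa, the centromeric H3, fell in KO (-1.36) and was higher in KO sham (1.18). H2aj rose in wt (0.61) and was higher in KO sham (0.49), the latter lost without wt sham 1 or 3, or KO sham 1 or 3 (adjusted p 0.0519 to 0.0612).

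DNA replication genes are given because histone supply is tied to S phase. Of 26 measured of 28 listed, 14 fell in wt (median log2 difference -0.43) and 24 fell in KO (median -1.07), and 21 were higher in KO sham (median 0.80). The shares over the array were 10.5%, 10.6% and 2.47%. All 26 have means above 45, and among all such probe sets the shares were 18.6%, 17.1% and 4.26%. The count of 21 was 13 without KO sham 2, and 16 without wt sham 2. Pcna, the sliding clamp, had a mean of 1049 in wt sham and 727 in wt paraquat, against 1724 and 943 in the KO groups. Mcm7 of the replicative helicase (-0.80, adjusted p 0.0486) and Cdc6 of origin licensing (-1.03, adjusted p 0.0395) fell more in KO than in wt. Each of these 2 calls was lost without any 1 of 10 arrays: all but wt sham 1 and KO paraquat 3 for Mcm7 (adjusted p 0.0775 to 0.129), and all but wt sham 1 and 2 for Cdc6 (0.0537 to 0.101). The mean log2 signal of this list was 7.65, 7.14 and 7.54 in wt sham, 7.12, 7.06 and 7.01 in wt paraquat, 8.24, 8.20 and 8.23 in KO sham, and 7.22, 7.13 and 7.36 in KO paraquat. The mean of the 8 distinct histone probe sets of 1000 or more was 11.07, 10.64 and 10.82 in wt sham, 10.57, 10.69 and 10.70 in wt paraquat, 11.90, 11.70 and 11.73 in KO sham, and 10.88, 11.04 and 11.36 in KO paraquat. Both were highest in the KO sham arrays and lowest among wt sham arrays on array 2. The bound of 1000 took in the KO sham arrays, and H2ac10 reached it only through them. The mean of the cycling markers was 9.12, 7.50 and 8.69 in wt sham, 7.22, 7.12 and 6.83 in wt paraquat, 9.81, 9.93 and 9.93 in KO sham, and 7.28, 7.47 and 7.77 in KO paraquat. The part of dividing cells in the histone differences was not tested.

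**Figure D5:**
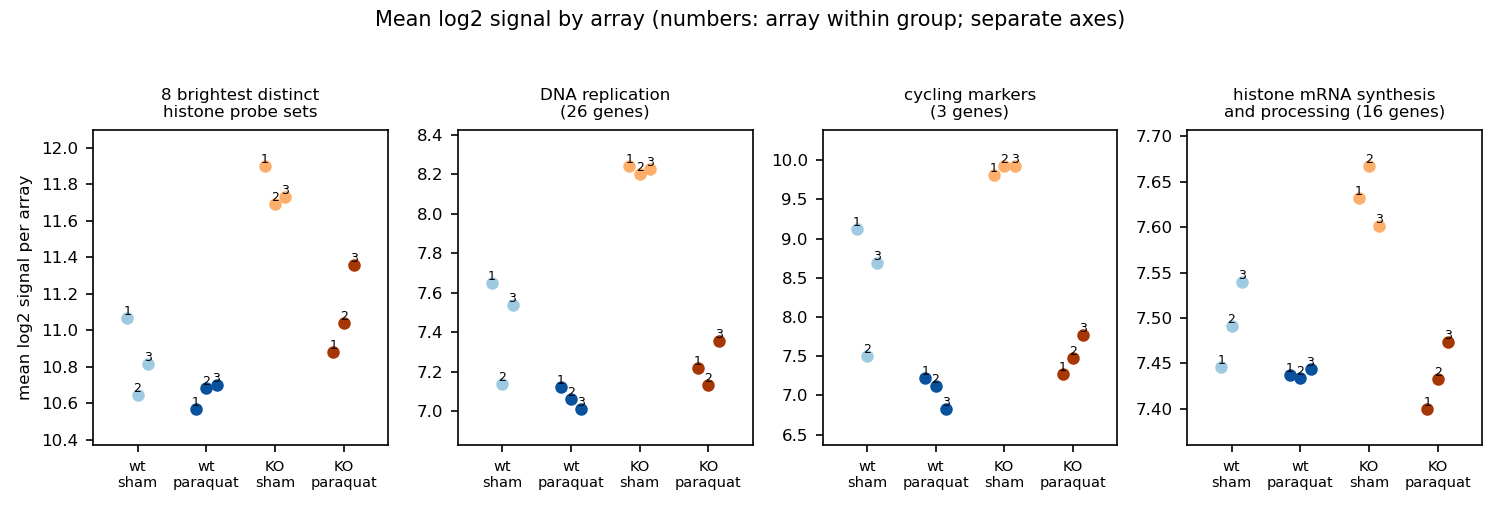
Mean log2 signal on each array (numbered within its group) of the 8 distinct histone probe sets with means of 1000 or more, of 26 DNA replication genes, of 3 cycling markers and of 16 genes of histone mRNA synthesis and processing, each on its own axis. In all 4 panels the 3 KO sham arrays are highest, and in the first 3 wt sham array 2 is the lowest of its group. The histone probe sets of the first panel were picked by a mean that includes KO sham.

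Upstream windows were found for 60 of the 65 genes (61 windows, since H2bc6 has 2). A CCAAT box, on either strand, was in 50 of 61 (82.0%) against 33.8% of 32851 windows of the same length in the RefSeq table. All 6 windows of H1, all 17 of H2A and all 16 of H2B held it, with 8 of 10 for H3 and 3 of 12 for H4. TATAAA was in 45.9% against 12.4%. The octamer core TTTGCAT was in 14 (23.0%) against 4.12%: 7 of 16 for H2B, 6 of 17 for H2A, 1 of 12 for H4 and none for H1 or H3. The H1 box AAACACA was in 5 of 6 H1 windows, missing only from H1f1, and in 14.8% of all histone windows against 6.25%. In at least 10 places an H2A and an H2B gene lie head to head, 163 to 280 bases apart, so their windows overlap and are not independent. Pairs with a gene that has no window, such as H2bc21, could not be counted.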

How the data were processed

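Total RNA (100 ng) of 12 keratinocyte cultures, 3 in each of 4 groups, was labelled with the GeneChip WT PLUS kit and hybridised to mouse arrays, per the labels' protocols. The deposited values are RMA intensities, on a linear scale as whole numbers, and log2 was taken here. The submitters' processing notes name RMA and, as software, Affymetrix Expression Console (1.3.1.187). RMA normalizes between arrays, so a shift shared by all probe sets cannot be seen. The number of arrays limits the precision.

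Genes were named from the platform annotation: of 41345 probe sets 23521 have 1 symbol, 1814 several and 16010 none. All 65 gene IDs of the histone probe sets matched the RefSeq table (GRCm38.p6), which also gave the upstream windows. Group means were fitted over the 12 arrays with limma 3.58.1 in R 4.3.3 on every probe set, for 5 comparisons: the paraquat response of wt and of KO, the genotypes under sham and under paraquat, and KO response minus wt response. P-values were Benjamini-Hochberg adjusted over all probe sets, with a threshold of 0.05. The fit was tested on simulated data.

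The members and lists were chosen with earlier results of these data known. Every histone probe set past the threshold could be named. Shown on every array were up to 3 with the smallest p in each direction and comparison, and the one with the highest mean in each class. Up to 4 genes per list were named by smallest p, from the brightest single-symbol probe set. Slbp, Pcna and some histone probe sets shown on every array were chosen after their values were seen. Alternatives were normalization, an offset, a filter, annotation, variance trend, array weights, fewer arrays and a replicate block.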

Additional observations from a re-analysis of the deposited data

How the results depend on the processing

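No call of a single histone probe set turned its direction under the 24 alternatives. The median of the paraquat response turned negative in both genotypes with the filter on dim probe sets. Of the calls of single histone probe sets, 19 of 25 in wt, 29 of 40 in KO and 4 of 24 between genotypes in sham held under every alternative that tested them. With 16 added to the signals the median was 0.11 in wt and 0.25 between genotypes in sham, and 1 probe set passed as lower in the difference between responses. The filter on dim probe sets, which 1 high group is enough to pass, left 38. It gave medians of -0.089 in wt, -0.27 in KO and 0.70 in sham. In KO 13 rose, where 3912 of the 22146 probe sets it kept on the whole array rose. With 1 probe set per gene (26), 6 rose and 6 fell in wt, 9 rose and 9 fell in KO, and 11 were higher in KO sham. Over the 22180 probe sets of that setting, 3311 rose and 3169 fell in wt, and 3217 rose and 2800 fell in KO. In KO sham 1016 of them were higher. With 1-symbol probe sets alone (27), 6 rose and 5 fell in wt, 8 rose and 9 fell in KO, and 10 were higher in KO sham. Over its 41308 probe sets the counts were 3997 and 4342 in wt, 3663 and 4352 in KO, and 1006 in sham. These 2 settings hold fewer probe sets by construction. In the 6 sham arrays 5 were higher in KO, where 89 of 41345 over the array were. Without both wt sham 2 and KO paraquat 3 the count was 15, where 543 over the array were higher. Array weights gave 1 higher in KO under paraquat; the cause was not tested.

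Leaving out 1 array gave 17 to 20 higher and 3 to 8 lower in wt (median 0.17 to 0.27), and 17 to 21 higher and 14 to 20 lower in KO (median 0.07 to 0.16). Between genotypes in sham it gave 13 to 24 higher and 0 to 0 lower (median 0.39 to 0.51). Under paraquat it gave 0 to 1 higher (median 0.22 to 0.35), and for the difference between responses 0 to 1 lower (median -0.32 to -0.17). With the replicate number as a block 17 rose and 6 fell in wt, 18 rose and 16 fell in KO, and 21 were higher in KO sham. Of 18 same-number pairs of arrays in different groups, 0 had deviations correlated over 0.1, while different-number pairs reached 0.28. The deviations are from means of 3 arrays, so this check cannot exclude that the number pairs the cultures. Counting identical probe sets once, chosen after seeing the data, gave 19 and 6 in wt, 21 and 17 in KO, and 22 in sham. How far signals near the array median of 42 to 45 lie above background was not measured. Whole-number rounding is coarse at much lower signals, such as those of H1f1.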
